A study of Mus musculus with 3 samples.

Results

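The genes described here are the 3 E proteins, Tcf3 (E2A), Tcf4 (E2-2) and Tcf12 (HEB), and the 4 Id factors, Id1, Id2, Id3 and Id4. They are 7 of the 21582 protein-coding genes ranked. They were taken by name and not by a measured value. For each gene the ATAC fragments over the gene body and 100 kb on either side were counted in bins of 500 bp, together with the fragments within 500 bp of every annotated protein-coding start. The cells were long-term HSCs (LSK CD48−CD150+CD34−), enriched for c-Kit and then sorted by flow cytometry from bone marrow of wild-type female C57BL/6 mice (C57BL/6J in the methods) aged 8 weeks. They were profiled by DOGMA-seq, which reads open chromatin (ATAC), RNA and antibody tags from the same cells. There was 1 preparation with 1 library of each kind, neither the labels nor the methods give the number of mice, and no treatment or second condition was present. Gene-level RNA was left out, so every value is a measure of open chromatin and not of expression.

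E proteins are basic helix-loop-helix (bHLH) transcription factors that bind the E-box, a short DNA string with a fixed CA at its start and a fixed TG at its end, as pairs with each other or with tissue-restricted bHLH factors such as Tal1 and Lyl1 in blood. Id factors have the helix-loop-helix part but lack the basic part that touches DNA, so they hold E proteins in pairs that cannot bind. In blood the balance of both groups is known to bear on stem cell maintenance and on the choice of the lymphoid lineages, and Id genes are classical targets of BMP receptors and Smad proteins.

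The library held 42000180 fragments, and 37137164 of those on chromosomes 1 to 19 and X came from the 3108 cells that passed (82.7% of 3757 called cells), with a median of 11457 fragments per cell (range, 3977 to 194399). The HSC label was checked against its markers. The promoters of 9 of 10 HSC genes were open, where open means a fragment end in at least 2% of passing cells (63 cells); the share of all protein-coding genes with an open promoter was 65.3%. The exception was Ly6a, with 38 fragments. The check is a weak one, since the HSC list had a median of 339 fragments, close to the 305 of all protein-coding genes. Hlf (1736) and Kit (1096) had the most, and Slamf1 (110) and Ly6a the least. None of 4 T cell promoters and none of 4 neutrophil promoters was open, and 1 of 4 B cell promoters was (Pax5, 894 fragments). Of monocyte promoters 1 of 3 was open (Cd14, 131 fragments). Among the genes of megakaryocytes 3 of 4 were open, and 2 of 4 stromal or endothelial promoters were, Pdgfra with 1272 fragments and Cxcl12 with 169. The part of other cells in these values was not tested. Intervals below are exact 95% intervals and cover counting error only, because cells of 1 preparation are not replicates.

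Sequences of some of the promoters and distal sites described below are given first. Whether they bear on the differences in openness was not tested. They are the 250 bases upstream of the RefSeq start (GRCm38.p6) for the E protein and the Id genes with the strongest promoters that the table holds, written 5′ to 3′ on the strand of the gene, and 300 bases of the GRCm38 genome (plus strand) around the middle of the fragment ends in 5 distal open sites. Capitals mark the E-box string CANNTG.
Tcf3 promoter, chr10:80433636-80433885 (minus strand): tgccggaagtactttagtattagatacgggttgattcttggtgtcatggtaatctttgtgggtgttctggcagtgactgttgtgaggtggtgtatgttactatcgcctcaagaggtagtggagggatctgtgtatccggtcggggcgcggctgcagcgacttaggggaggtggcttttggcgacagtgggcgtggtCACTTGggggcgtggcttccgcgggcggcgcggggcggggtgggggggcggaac
Id2 promoter, chr12:25096093-25096342 (minus strand): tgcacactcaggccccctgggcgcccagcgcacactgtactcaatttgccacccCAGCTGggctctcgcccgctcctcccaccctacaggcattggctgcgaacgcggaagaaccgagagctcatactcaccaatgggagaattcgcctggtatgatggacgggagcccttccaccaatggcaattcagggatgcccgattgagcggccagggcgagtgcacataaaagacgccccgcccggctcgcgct
Id4 promoter, chr13:48260866-48261115 (plus strand): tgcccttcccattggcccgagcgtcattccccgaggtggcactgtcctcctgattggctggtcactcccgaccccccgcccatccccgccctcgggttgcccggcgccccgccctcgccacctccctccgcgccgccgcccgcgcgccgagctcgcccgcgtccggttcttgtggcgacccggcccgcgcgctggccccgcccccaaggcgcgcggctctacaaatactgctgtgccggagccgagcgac
Tcf12 site 21.4 kb upstream, chr9:72133090-72133389 (plus strand): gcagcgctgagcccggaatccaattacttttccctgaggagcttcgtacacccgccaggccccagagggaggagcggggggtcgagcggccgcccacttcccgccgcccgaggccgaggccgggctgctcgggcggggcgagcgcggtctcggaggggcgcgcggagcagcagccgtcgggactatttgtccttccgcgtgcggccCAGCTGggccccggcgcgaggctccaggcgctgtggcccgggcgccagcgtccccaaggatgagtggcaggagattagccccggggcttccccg
Id1 site 5.5 kb downstream, chr2:152741624-152741923 (plus strand): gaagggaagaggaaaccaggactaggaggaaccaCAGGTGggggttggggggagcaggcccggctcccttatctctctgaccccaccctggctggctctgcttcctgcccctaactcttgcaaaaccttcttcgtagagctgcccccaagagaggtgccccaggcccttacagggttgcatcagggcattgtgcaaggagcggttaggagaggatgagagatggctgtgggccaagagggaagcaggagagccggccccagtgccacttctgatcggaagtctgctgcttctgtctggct
Id2 site 23.7 kb upstream, chr12:25119436-25119735 (plus strand): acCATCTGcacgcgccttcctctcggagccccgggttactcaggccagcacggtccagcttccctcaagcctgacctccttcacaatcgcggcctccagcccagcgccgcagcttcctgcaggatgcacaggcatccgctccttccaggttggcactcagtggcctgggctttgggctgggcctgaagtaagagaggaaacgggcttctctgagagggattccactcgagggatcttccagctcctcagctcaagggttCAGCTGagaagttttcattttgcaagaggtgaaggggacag
Id3 site 4.25 kb downstream, chr4:136147742-136148041 (plus strand): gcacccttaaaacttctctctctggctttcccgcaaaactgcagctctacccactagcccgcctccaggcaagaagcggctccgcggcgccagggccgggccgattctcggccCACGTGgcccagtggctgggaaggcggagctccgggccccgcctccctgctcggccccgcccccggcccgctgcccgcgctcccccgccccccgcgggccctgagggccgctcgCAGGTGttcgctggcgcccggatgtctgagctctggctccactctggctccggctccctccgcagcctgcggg
Id4 site 33.5 kb upstream, chr13:48227741-48228040 (plus strand): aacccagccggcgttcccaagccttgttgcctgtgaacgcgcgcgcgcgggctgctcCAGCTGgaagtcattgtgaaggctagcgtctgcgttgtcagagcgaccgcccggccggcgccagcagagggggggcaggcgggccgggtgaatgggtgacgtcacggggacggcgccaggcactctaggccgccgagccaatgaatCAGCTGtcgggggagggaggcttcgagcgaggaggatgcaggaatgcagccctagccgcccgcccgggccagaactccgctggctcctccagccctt
The Tcf3 promoter held 1 E-box string and the Id2 promoter held 1, which in Id2 was CAGCTG, while the Id4 promoter held none. The Id4 distal site held CAGCTG at 2 places and TGACGTCA once.

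All 7 members had an open main promoter, beside 65.3% of all protein-coding genes, and the levels were far apart. The main promoter was the annotated start with the most fragments within 500 bp. Tcf3, which makes the E12 and E47 proteins needed for early B cell development, had the most open promoter of the 7, with 3385 fragments (3272 to 3501) in 62.5% of cells (60.8 to 64.2). It stood at the 97th percentile of protein-coding genes. Tcf12, an E protein with a known role in thymocytes, had 1474 fragments (1400 to 1551) in 33.7% of cells, and Tcf4, which drives plasmacytoid dendritic cell development, had 1265 (1196 to 1337) in 30.9%. E proteins therefore covered the 78.9th to the 97th percentile, but with its most upstream start, which had 40 fragments, Tcf4 stood at the 34.7th.

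By the start with the most fragments, the Id genes fell into a higher and a lower pair. Id4, best known from neural and mammary progenitors, had 1298 fragments (1228 to 1371) in 30.1% of cells. Id2, which is required for natural killer and innate lymphoid cells, had 1287 (1218 to 1359) in 30.5%. Both lay next to Tcf4 and Tcf12. Id1, a target of BMP signalling, had 535 fragments (491 to 582) in 14.7% of cells. Id3, which limits E protein activity in lymphocytes, had the least, with 342 (307 to 380) in 9.46%, at the 51.9th percentile, close to the median promoter of 305 fragments. The place of Id2 in the higher pair rested on the choice of start, since Id2 has 2 starts, both of principal transcripts, and the upstream one had 137 fragments against 1287. With the most upstream start standing for each gene Id2 stood at the 43.3rd percentile, below Id1 (63.1st) and Id3 (55.2nd).

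**Figure D1:**
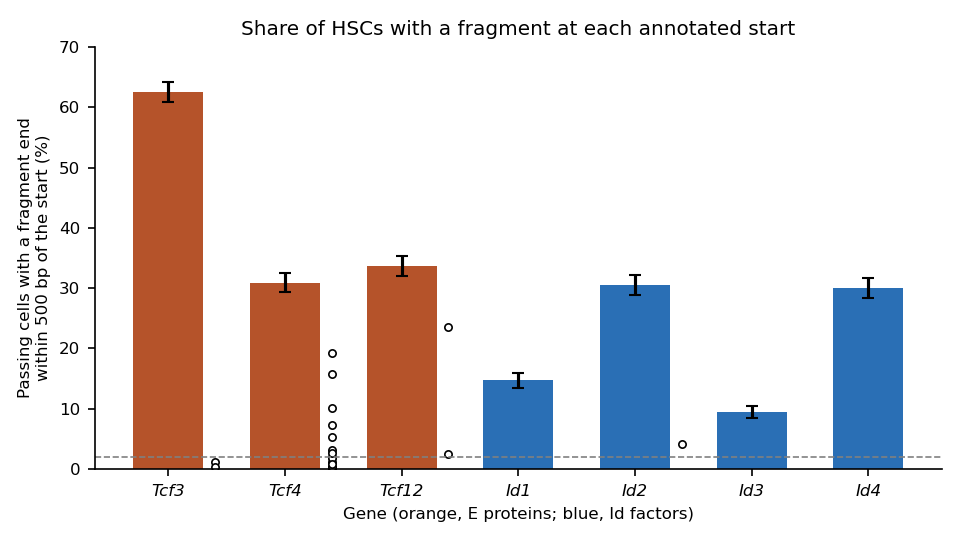
Share of passing cells with a fragment end within 500 bp of each annotated start (%), for E proteins (orange) and Id factors (blue). Bars are the main start with exact 95% binomial intervals, open circles are the other starts of the same gene, and the dashed line is the 2% that defines an open promoter. Tcf3 reaches 62.5% of cells, 4 genes lie between 30.1% and 33.7%, and Id1 and Id3 lie at 14.7% and 9.46%.

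In order of fragments, Tcf3 exceeded Tcf12 by 2.30-fold (2.16 to 2.44), and Tcf12 exceeded Id4 by 1.14-fold (1.05 to 1.22). Id4, Id2 and Tcf4 could not be put in order, since the ratio of Id4 to Id2 was 1.01 (0.933 to 1.09) and that of Id2 to Tcf4 was 1.02 (0.941 to 1.1). Tcf4 exceeded Id1 by 2.36-fold (2.14 to 2.62), and Id1 exceeded Id3 by 1.56-fold (1.36 to 1.80). The 3 E protein promoters held 6124 fragments in all and the 4 Id promoters 3462, a ratio of 1.77 (1.70 to 1.84). Per gene the means were 2041 and 865.5, a ratio of 2.36 (2.26 to 2.46). Without Tcf3 the ratio of the sums turned to 0.791 (0.752 to 0.832), for 2 E proteins against 4 Id genes, and the ratio per gene was 1.58 (1.5 to 1.66). The choice of start moved the ratio of the sums, which was 2.65 when the most upstream start of a principal transcript stood for each gene. Among the members only Id2 then changed its start, and since the main start of each member is also that of a principal transcript, the ratio of 1.77 rests on principal starts too.

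The shape of the promoters differed as well as their level. At Tcf3 the ends were densest 25 bp upstream of the start, with 959 ends in 50 bp. At Tcf12 they were also densest 25 bp upstream (498 ends), with a lower peak 425 bp downstream (259 ends). At Id2 the peak lay 75 bp upstream (525 ends), at Id4 325 bp upstream (371 ends) and at Tcf4 275 bp downstream (550 ends). Id1 was the exception, because its highest peak lay 1025 bp upstream of the start (289 ends), above the peak at the start itself (198 ends, 75 bp upstream). Id3 had a peak 225 bp downstream of the annotated start (169 ends) and another 1325 bp downstream (86 ends). The place of the first peak depends on the annotation. The RefSeq promoter of Id3, which begins 250 bases before the RefSeq start, begins at chr4:136143572, downstream of the start used here (136143497). The first peak thus lies upstream of the RefSeq start.

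**Figure D2:**
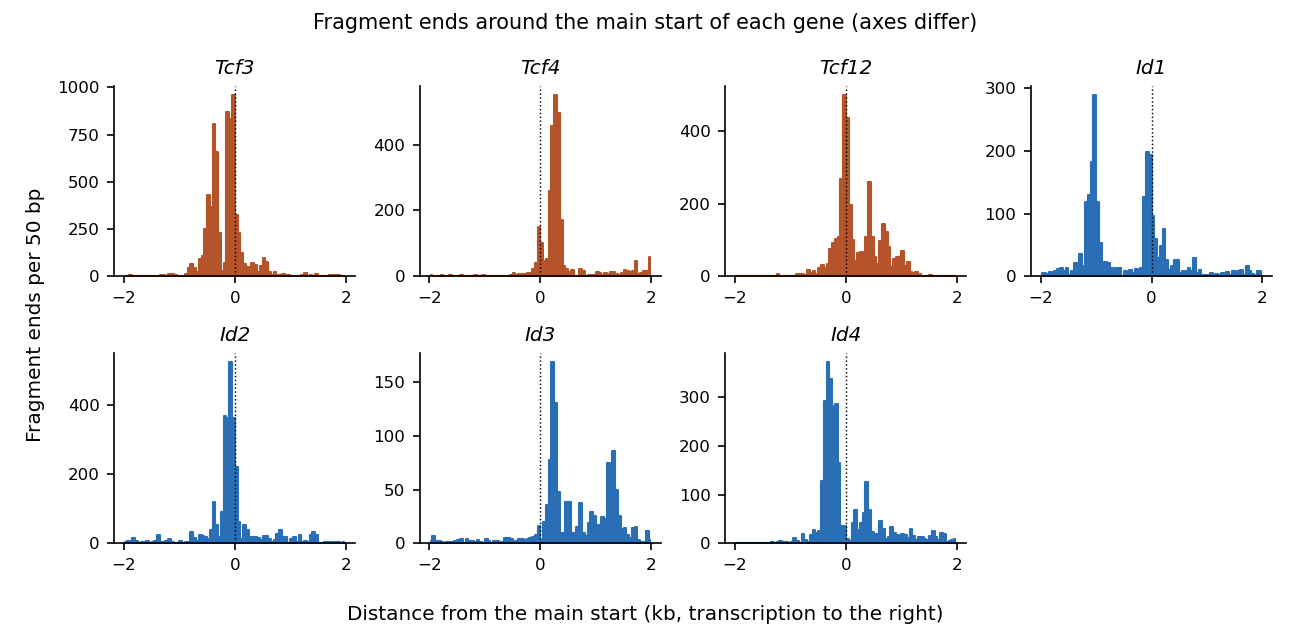
Fragment ends per 50 bp against the distance from the main start (kb, transcription to the right) in passing cells, 1 panel per gene, with the vertical scale set per panel. Every gene other than Id1 has its highest peak within 325 bp of the start, and Id1 has a higher peak 1025 bp upstream than at the start.

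Short fragments, with a length below that of the DNA around a nucleosome, made up 45.6% of the library and 57.7% of the fragments at all main promoters. The share was highest at Tcf4 (67.1%), Id2 (64.8%) and Id4 (63.3%). It was lowest at Tcf12 (46.1%), followed by Id1 (51.4%) and Tcf3 (53.9%), while Id3 had 57.6%. The most open promoter was thus not the one with the largest share of short fragments.

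Tcf4, Tcf12, Tcf3 and Id2 have more than 1 annotated start, and these starts were open to very different degrees. Tcf4 had 19 starts, of which 9 were open. Its main start at the 5′ end (chr18:69344146 on GRCm38) had 1265 fragments, and an internal start 248842 bp downstream, which gives shorter proteins, had 775 in 19.3% of cells, a ratio of 1.63 (1.49 to 1.79). A further internal start, at 69415897, was open in 5.31% of cells. The 6 starts between 69499389 and 69522450 had 3 to 10 fragments each, so the open starts up to 69415897 and those from 69592988 on were separated by starts with almost no fragments.

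Tcf12 had a main start at chr9:72111871, a second one at 72111202 whose window overlaps the first (947 fragments) and an internal start 215475 bp downstream. That internal start had 102 fragments in 2.51% of cells, just above the limit of 2%, and the main start exceeded it by 14.5-fold (11.8 to 17.8). Tcf3 had a single open start (chr10:80433647), and its next start, 2565 bp downstream, had 42 fragments in 1.22% of cells. Id2 (main start chr12:25096092) had a second start 1048 bp upstream with 137 fragments in 4.09% of cells, and the main start exceeded it by 9.39-fold (7.87 to 11.3). Id1 (chr2:152736251), Id3 (chr4:136143497) and Id4 (chr13:48261228) have 1 start each in the annotation used.

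The surroundings of the genes did not follow the order of their promoters. Over the 7 windows together 263 of 4109 bins were open (6.4%), beside 1.95% of all bins of chromosomes 1 to 19 and X. Of distal bins, those outside the 500 bp on either side of every grouped start of a complete protein-coding transcript, 193 of 3979 were open (4.85%), beside 1.29% of distal bins in the genome. The Id windows had more of their distal bins open (104 of 1588, 6.55%) than the E protein windows (89 of 2391, 3.72%), although their promoters held fewer fragments. The E protein windows are longer, because Tcf4 and Tcf12 are long genes with bodies of 345724 and 269184 bp.

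The windows fell into dense and sparse ones in both groups. In the Tcf3 window 60 of 412 distal bins were open (14.6%), in the Id3 window 43 of 394 (10.9%), in the Id1 window 30 of 383 (7.83%) and in the Id2 window 25 of 403 (6.20%). In the Tcf4 window 20 of 1050 were open (1.90%), in the Id4 window 6 of 408 (1.47%) and in the Tcf12 window 9 of 929 (0.969%). The last 3 shares were the ones closest to the 1.29% of the genome. Fragments per kb followed the same division, with 138 for Tcf3, 74.4 for Id3, 71.4 for Id1 and 36.7 for Id2, against 15.0 for Tcf12, 14.6 for Tcf4 and 12.4 for Id4, beside 14.1 for the genome. The dense windows of Tcf3, Id1 and Id3 also held 22, 7 and 9 open bins at promoters of neighbouring genes, the Tcf12 window held 2, and those of Tcf4, Id2 and Id4 held none. Which gene a distal bin serves was not tested.

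**Figure D3:**
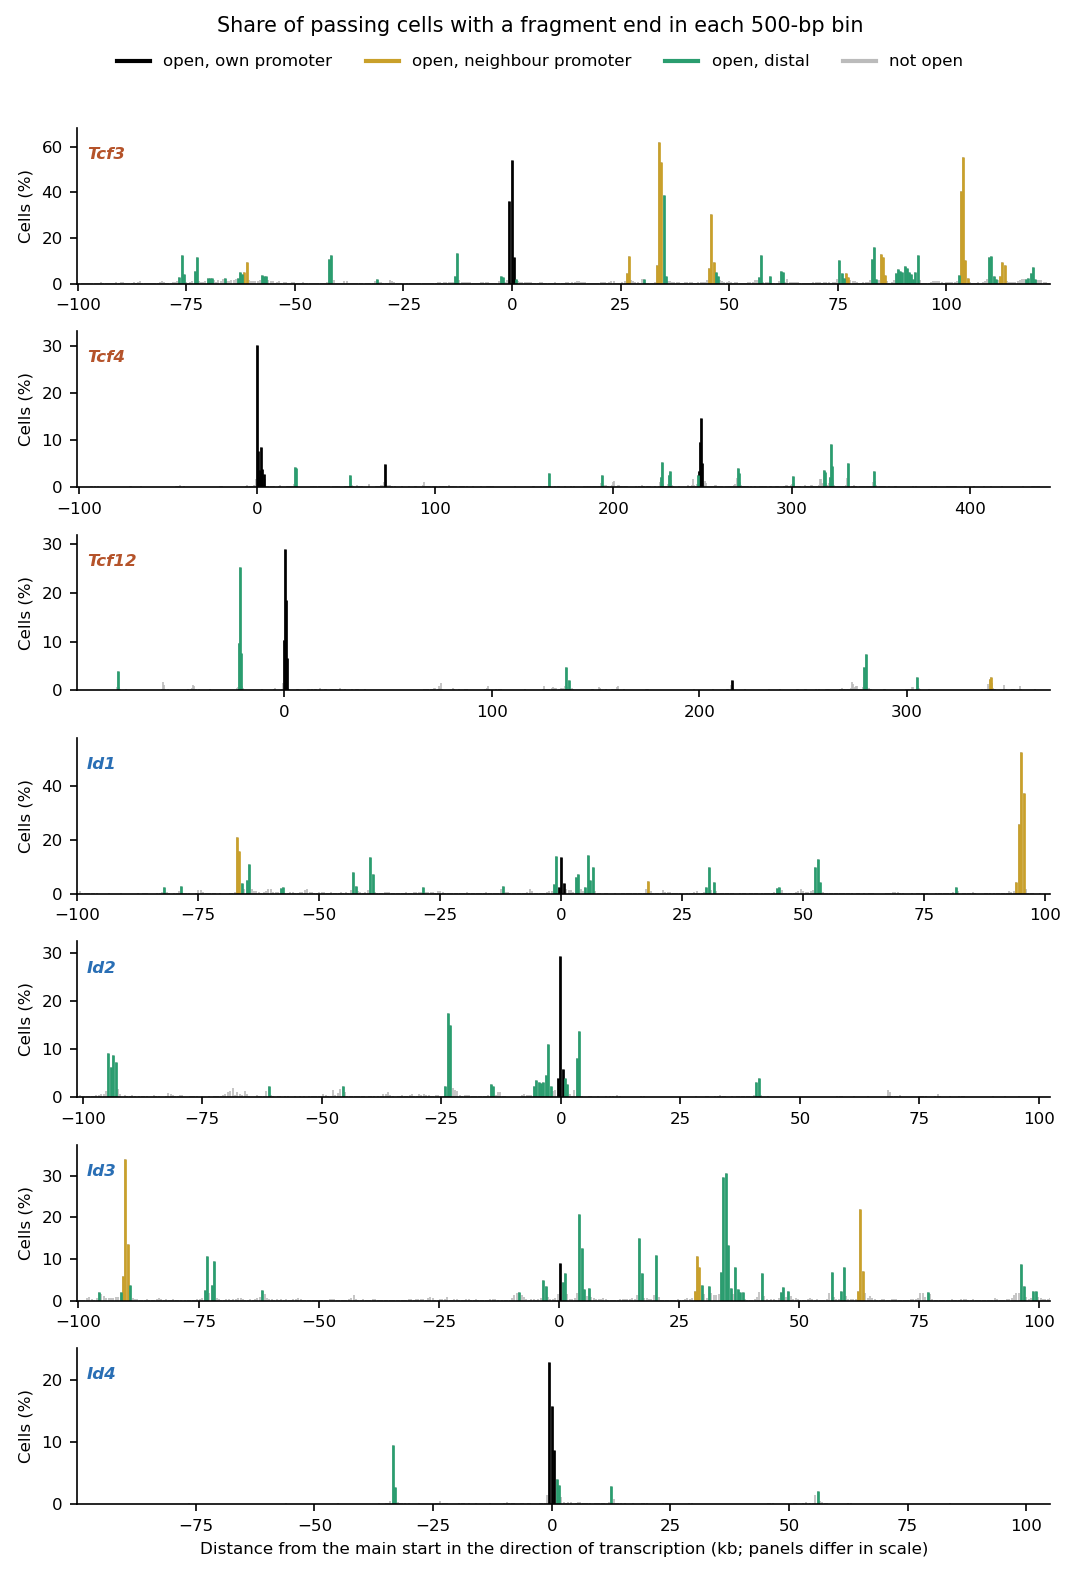
Share of passing cells (%) with a fragment end in each 500-bp bin against the distance from the main start (kb, transcription to the right), with open bins coloured by kind and other bins grey. Scales differ between panels. Open distal bins are many around Tcf3 (60), Id3 (43), Id1 (30) and Id2 (25) and few around Tcf4 (20 over a longer window), Tcf12 (9) and Id4 (6).

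Adjoining open bins were joined into sites, and the strength of a site is that of its strongest bin. The strongest distal site of the 7 windows lay in that of Id3, 34.8 kb downstream of its start at chr4:136178001-136178500. It had 1385 fragments (1313 to 1460) in 30.8% of cells and stood at the 99.3rd percentile of open distal bins. It lies in a coding exon of E2f2, a cell cycle regulator whose own start is the nearest, 5.86 kb away, so its place in the Id3 window is a matter of distance only. A second site 4.25 kb downstream of Id3 (chr4:136147501-136148000, intergenic) had 813 fragments (758 to 871) in 20.8% of cells, and Id3 is the nearest coding gene. That bin alone held more fragments than the whole Id3 promoter window, which had 342. A site 16.8 kb downstream added 528 fragments. The other sites among the 5 strongest were promoters of neighbours, Rpl11, a ribosomal protein gene, with 1413 fragments in its strongest bin and Asap3 with 915. Id3 was the gene whose promoter was weakest and whose surroundings were among the most open.

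For Id1 no excess of a distal bin over the promoter window was seen beyond counting error. That window reaches 500 bp to either side of the start and is wider than a bin. A bin of like width at the start was not compared. The strongest distal site of Id1, 5.5 kb downstream (chr2:152741501-152742000, intergenic), had 554 fragments (509 to 602) in 14.4% of cells, against 535 (491 to 582) in the promoter window. A site 53.0 kb downstream in an intron of Bcl2l1, which encodes a survival factor of the BCL2 family, had 514 (471 to 560), and the 2 intervals overlapped. The peak about 1 kb upstream of the start formed the strongest bin of the site that also holds the Id1 promoter, with 550 fragments in 14.2% of cells. The strongest sites of the window were promoters of neighbours, Bcl2l1 with 2659 fragments in its strongest bin and H13 with 792.

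Around Id2 every open site other than its own promoter was distal. The strongest lay 23.7 kb upstream (chr12:25119501-25120000, intergenic) with 657 fragments (608 to 709) in 17.4% of cells, at the 96.6th percentile. Others lay 3.84 kb downstream (465 fragments), 2.66 kb upstream in a run of open bins 4000 bp long (416) and 94.7 kb upstream in an intron of Gm36287 (324). Id2 was the nearest coding gene to all 4. The Id2 promoter, with 1222 fragments in its strongest bin, stayed above each of them.

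Id4 had the sparsest surroundings of the Id genes, with 3 distal sites. The strongest lay 33.5 kb upstream in introns of the non-coding genes A330033J07Rik and Gm36346 (chr13:48227501-48228000) and had 357 fragments (321 to 396) in 9.56% of cells. Of these 82.6% (78.3 to 86.4) were short, the largest share among the strongest distal sites. The other 2 sites, 12.5 and 56.0 kb downstream, had 93 and 85 fragments, below the median open distal bin of 124.

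Tcf12 had the strongest distal site among the E proteins, 21.4 kb upstream at chr9:72133001-72133500 (intergenic, nearest to Tcf12). It had 987 fragments (926 to 1051) in 25.3% of cells, at the 98.5th percentile, with 41.9% of them short. The next sites of that window had 247, 166 and 136 fragments, and 9 of its 929 distal bins were open (0.969%), in 6 sites. In the Tcf4 window the strongest distal sites lay inside the gene, 322 kb downstream of the main start in an intron (326 fragments, 9.17% of cells), 332 kb downstream in a coding exon (190) and 227 kb downstream in an intron (177). All 3 lie far downstream of the main start, on either side of the open internal starts.

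The Tcf3 window is gene-dense, and its 4 strongest sites were promoters. They were those of Mbd3, which encodes a subunit of the NuRD complex (3415 fragments in its strongest bin), of Reep6 and Pcsk4 (2703), of Tcf3 itself (2678) and of Mex3d (1273). The strongest distal site apart from these lay 83.4 kb downstream at chr10:80350001-80350500, nearest to Adamtsl5, with 547 fragments (502 to 595) in 16% of cells. The nearest strong site to Tcf3 itself lay 12.6 kb upstream with 475 fragments (433 to 520) in 13.4% of cells. A distal bin beside the Mbd3 promoter, open in 38.9% of cells, was joined to that promoter and is not counted as a distal site. It is counted among the 60 open distal bins of the window and in their share of its fragments.

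As a result the fragments of each window were divided very differently. The own promoter took 52.3% of the fragments in the Id4 window, 34.3% for Tcf4, 26.8% for Tcf12, 17.4% for Id2, 11.4% for Tcf3, 3.83% for Id1 and 1.89% for Id3. Open distal bins took 54.2% for Id3, 50% for Id2 and 35.6% for Id1, against 30.9% for Tcf3, 26.8% for Id4, 26.7% for Tcf12 and 23.6% for Tcf4. With flanks of 20 kb in place of 100 kb the own promoter took 73.2% for Id4, 41.4% for Tcf12, 38.1% for Id2, 36.2% for Tcf4, 28.6% for Tcf3, 16% for Id1 and 7.81% for Id3. Open distal bins then took 70.8% for Id3, 56.8% for Id1, 48.5% for Id2 and 24.9% for Tcf4, against 16% for Tcf3, 12.8% for Id4 and 11.7% for Tcf12. Open bins that adjoin a promoter but lie beyond 500 bp of a start are counted as distal in these shares. Among them are the strongest bin upstream of Id1 and, in the Tcf3 window, the bin beside the Mbd3 promoter, open in 38.9% of cells. With bins joined to the own promoter counted as promoter, an alternative chosen after seeing the data, the own promoter took 7.65% for Id1 and 3.77% for Id3 with flanks of 100 kb, and 31.9% and 15.6% with flanks of 20 kb, where Tcf3 then had 29.1%. Id3 had the lowest own-promoter share in each case, whereas Id1 was the next lowest in all but the last. With flanks of 20 kb this alternative left 63% in open distal bins for Id3, 44.4% for Id2, 40.8% for Id1 and 23.9% for Tcf4. Tcf3 then had 15.6%, Tcf12 11.7% and Id4 4.44%.

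**Figure D4:**
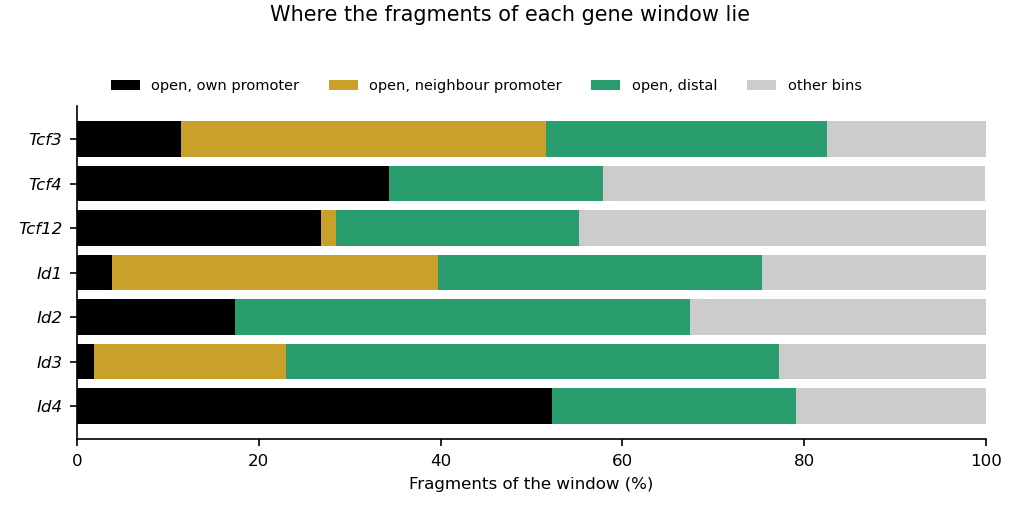
Share of the fragments of each window (%, horizontal axis) that lie in open bins of the own promoter (black), of neighbouring promoters (yellow), in open distal bins (green) and in other bins (grey). Id4 has 52.3% at its own promoter and Id3 1.89%, while open distal bins hold 54.2% in the Id3 window.

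The strings searched in sequence, each on both strands, were the E-box CANNTG with its forms CAGCTG and CAGGTG (every match of which is also a match of the general form), the GATA core AGATAA, the ETS string CCGGAAG, the RUNX string TGTGGT, the CREB string TGACGTCA, the AP-1 string TGAGTCA and the GC-rich string GGCGCC. RefSeq promoters of 300 bases (250 before to 50 after the start) were found for Tcf3, Tcf12 (3 entries), Id2, Id3 and Id4. CANNTG was present in 5 of these 7 entries, beside 72.3% of 32619 RefSeq promoters, and the entries without it were those of Id3 and Id4. CAGCTG was present at Id2 and at the main Tcf12 start (16.4% of all promoters), and CCGGAAG at Tcf3 (8.92%). The promoters were rich in CpG, with 41 CpG dinucleotides at the main start of Tcf12 (96.7th percentile), 39 at Id4 (95.8th), 25 at Tcf3 (82.2nd), 21 at Id2 (75.9th) and 19 at Id3 (72.5th). The internal start of Tcf12, whose window was barely open, had none.

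Among the 4 strongest distal sites per window, 23 in all without those of Tcf4 since Id4 had 3, CANNTG was present in 21, beside 80.5% of 31923 distal open sites of the genome cut to the same length. CAGCTG was present in 10 of 23 (20.4% of all sites), CAGGTG in 10 (22.7%), GGCGCC in 7 (6.81%), AGATAA in 6 (14.3%), TGTGGT in 6 (29.4%), TGAGTCA in 2 (9.14%), TGACGTCA in 1 (0.677%) and CCGGAAG in 0 (3.34%). The member sites were picked for strength and several share a window, whereas the comparison set held every open distal site, so these shares are a description. All 4 Id2 sites held CAGCTG, as did the Id3 site in E2f2, the Tcf12 site 21.4 kb upstream and the Id4 site 33.5 kb upstream, each of which is the strongest distal site of its window. Of the sites shown in full, the one 5.5 kb downstream of Id1 held CAGGTG as well as AGATAA and also TGTGGT once each, and the one 4.25 kb downstream of Id3 held CAGGTG once and 30 CpG dinucleotides. A match is a run of letters and not a bound site.

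Across cells, the level of Tcf3 fell with depth by more than that of all promoters together, and that of Id3 rose, with an interval that came close to 1. Cells were split into terciles of 1036 by their number of ATAC fragments, and fragments per 1000000 fragments of the same cells (FPM) were compared. Tcf3 had 106 (98.7 to 113) in the lowest tercile, 92.7 in the middle and 83.3 (79.0 to 87.7) in the highest, a ratio of highest to lowest of 0.788 (0.724 to 0.859). Tcf12 had 44.6, 41.9 and 35.9, a ratio of 0.805 (0.706 to 0.92). Promoters of all protein-coding genes together also had lower values in deeper cells, with 444244, 434514 and 405378 FPM and a ratio of 0.913 (0.911 to 0.914), which lies within the interval of Tcf12 and outside that of Tcf3. Id3 went the other way, with 7.70 in the lowest, 8.27 in the middle and 10.6 in the highest, a ratio of 1.37 (1.02 to 1.86). It rested on 62 fragments in the lowest tercile. For Id3 the ratios of highest to middle, 1.28 (0.993 to 1.65), and of middle to lowest, 1.07 (0.774 to 1.5), both had intervals that held 1. No allowance was made for the number of genes looked at. For the other 4 genes the interval of the ratio held 1, with 0.907 (0.785 to 1.05) for Tcf4, 0.979 (0.781 to 1.23) for Id1, 1 (0.867 to 1.16) for Id2 and 1.03 (0.888 to 1.19) for Id4.

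**Figure D5:**
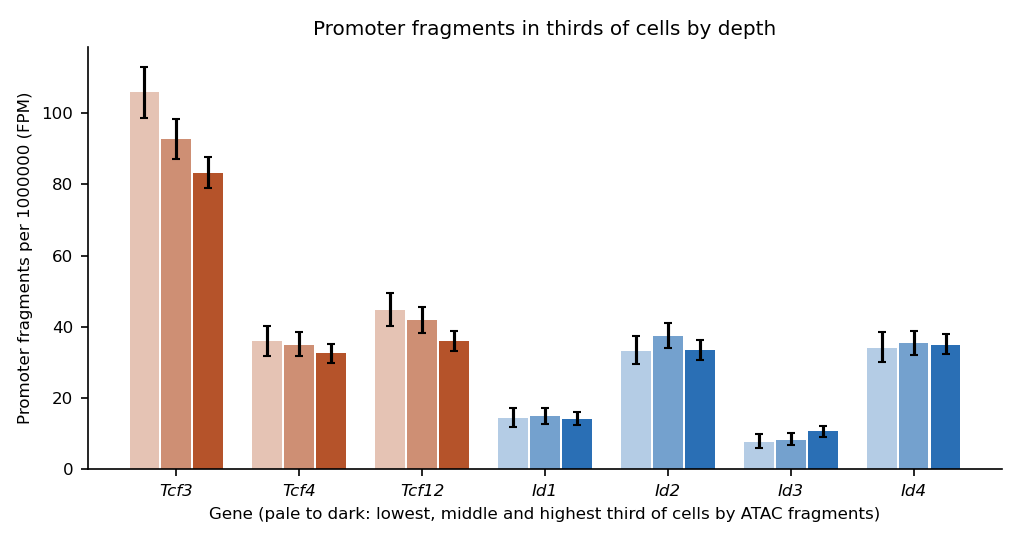
Promoter fragments per 1000000 fragments (FPM) of each gene in terciles of cells by ATAC fragments, from the lowest (pale) to the highest (dark), with exact 95% Poisson intervals. Tcf3 falls from 106 to 83.3, while the fall of Tcf12 from 44.6 to 35.9 cannot be told from that of all promoters together. Id3 rises from 7.70 (5.9 to 9.87) to 10.6 (9.08 to 12.2), and these intervals overlap.

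In terciles by RNA molecules (median UMIs per cell of 2889, 3860.5 and 5154), Tcf3 had 99.3 (93.5 to 105), 89.6 and 86.2 (81.4 to 91.1) FPM. The ratio of highest to lowest was 0.868 (0.8 to 0.942) for Tcf3 and 0.872 (0.766 to 0.994) for Tcf12, beside 0.96 for all promoters together, which the interval of Tcf12 holds, and for the 5 other genes its interval held 1. Beside Tcf3, the middle tercile differed from at least 1 other, by the interval of the ratio, for Tcf12, Id2, Id3 and Id4. Tcf12 had 46.1 FPM there against 39.7 in the lowest and 34.6 in the highest, and Id4 had 39.7 against 33.7 and 32.1. Id3 had 7.34 there against 8.67 and 11.1, with a ratio of highest to middle of 1.51 (1.16 to 1.99), and that ratio was 1.17 (1.02 to 1.34) for Id2. Several of these intervals came close to 1, such as that of middle to lowest for Tcf12 (1.02 to 1.32). They were picked from all pairs of terciles for the 7 genes, with no allowance for their number. Cells with more RNA also had more ATAC fragments, and the part of either in these values was not tested.

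Fragments at both kinds of promoter were often found in the same cell. A fragment at any E protein promoter was found in 81.9% of cells, at any Id promoter in 60% and at both in 50.3%, while 8.46% had neither. Of the cells with an E protein fragment 61.5% (59.5 to 63.4) also had an Id fragment, and of the cells without one 53.3% (49.1 to 57.5) had. Within terciles of depth the values were 46.5% and 42.4%, 63.0% and 57.1%, and 72.4% and 73.2%, with overlapping intervals in each, and in the highest tercile the cells without an E protein fragment had the larger value. Most cells had a fragment at 1 to 3 of the 7 promoters (742, 1011 and 679 cells), and 1 cell had a fragment at all 7. At this depth an absent fragment does not show a closed promoter.

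Fragments in barcodes not called as cells served as the background of the library. All promoters together had 1.81-fold the FPM in passing cells that they had in these barcodes. The ratio was 2.50 (1.91 to 3.32) for Tcf12, 2.07 (1.76 to 2.45) for Tcf3, 1.81 for Id1, 1.77 for Tcf4, 1.76 for Id4 and 1.67 for Id2, and the intervals of all 6 lay above 1. For Id3 it was 1.48 (0.959 to 2.39), on 22 fragments outside cells, an interval that holds both 1 and the 1.81 of all promoters. At this depth a difference from the background was therefore not detectable for that promoter, and neither was a difference from promoters together.

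The partners of the members were compared by their promoters, from lists of known biology. Of the blood bHLH factors that pair with E proteins 6 of 6 were open, with a median of 203 fragments, beside 65.3% open and a median of 305 over all protein-coding genes. The list was uneven. Lyl1 had 4704 fragments in 72.7% of cells (99.2nd percentile) and Tal1, required for the formation of blood stem cells, had 1603 in 36.5%, whereas Tal2 had 115 and Msc 90. Lyl1 therefore exceeded Tcf3, and Tal1 was close to Tcf12. Of 16 further bHLH partners, listed for their roles in other tissues, 11 were open, with a median of 150 fragments. Tcf15 (620), which also has a described role in blood stem cells, and Twist1 (418) had the most, and the muscle factors Myod1 (17) and Myf5 (5) the least.

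The non-bHLH parts of E protein complexes were open in 6 of 6, with a median of 1266 fragments, close to Tcf4, beside the 65.3% open and the median of 305 over all protein-coding genes. They ranged from Cbfa2t2 (2753) and Cbfa2t3 (1300), corepressors of the ETO family, down to Lmo2 (966), the bridge between Tal1 and GATA factors, and Runx1t1 (399). BMP receptor and Smad genes were open in 9 of 9 with a median of 1227. Bmpr2, a receptor, had 2336 and Smad7, an inhibitor, 2268, while Smad1, which carries BMP signals, had 677 and Smad9 189.

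Of 15 lymphoid genes that E proteins are known to activate 6 were open, below the 65.3% of all genes, with a median of 28 fragments. Foxo1 (1775) and Pax5 (894) had the most, and Ptcra (9) and Cd3e (5), genes of the T cell receptor complexes, had the least. The promoters of the 3 E proteins were thus open in a cell population in which 9 of these 15 were not.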

How the data were processed

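The authors used Cell Ranger ARC 2.0.2 and its mm10 reference for mapping and deposited, for every unique ATAC fragment, its position, barcode and count of read pairs, together with counts of fragments and UMIs per barcode. No deposited value was normalized. A cell passed when it was called and had more than 3000 fragments in peaks, as in the paper; its other limits were not applied, and doublets were kept. A fragment was counted once in a window when at least 1 of its ends lay there, and passing fragments rested on 4.5 read pairs on average. Starts of complete protein-coding transcripts of GENCODE vM21 within 500 bp of each other were grouped, and the start with the most fragments stood for the gene. Chromosome lengths were checked against GRCm38. Bins were called open at 2% of passing cells. Intervals were exact 95% Poisson or Clopper-Pearson intervals and conditional binomial intervals for ratios. With 1 library no test between groups was possible, and depth sets the precision of each value.

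The text names all members, the 5 strongest open sites of each window and the 2 highest and 2 lowest genes of each list; the exceptions are other starts, markers, sites near a member and genes at a site, named after their values were seen. The members and lists were chosen with earlier results of these data known. Alternatives changed the cells, depth, fragments, windows, starts, bin size, flank and threshold. Sequences of Tcf4 and Id1 promoters were not used here, nor were the antibody counts and 26 other columns per barcode. The erythroid marker list is not reported here. Counting and intervals were tested on simulated data. The software was numba 0.67.0, numpy 2.4.6, pandas 2.3.3 and scipy 1.17.1 under Python 3.11.15, and matplotlib 3.10.9 for figures.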

Additional observations from a re-analysis of the deposited data

How the results depend on the processing

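The ratio of summed promoter fragments, E proteins over Id genes (1.77), stayed above 1 under each alternative for the cells, fragments, windows and starts, and was below it (0.791) with Tcf3 left out. It was 1.58 with short fragments (below the length of nucleosomal DNA), 1.85 with at least 2 read pairs per fragment, 1.69 and 1.68 with windows of 250 and 1000 bp, 2.12 with the most upstream start and 2.65 with the most upstream principal start (among the members a change of start for Id2 alone), and within 1.76 to 1.84 otherwise. Counts of open bins moved with depth and threshold. Own-promoter bins of the E proteins (20) numbered 10 with each cell thinned to 3000 fragments, 11 with short fragments, 13 at a threshold of 5% and 13 in bins of 1000 bp, and those of the Id genes (10) numbered 6 when thinned and 6 with short fragments. Distal bins of the E protein windows (89) numbered 19 when thinned, 33 with short fragments, 180 at 1% and 33 at 5%, and those of the Id windows (104) numbered 31, 40, 195 and 40 in the same order. The Id windows held more open distal bins in all of these. The strongest distal site ranked first under all 10 alternatives in the Tcf4, Tcf12, Id2 and Id4 windows. In those of Tcf3 (threshold of 1%, bins of 1000 bp) and Id3 (bins of 1000 bp) it was joined to a promoter and had no rank, and it ranked first otherwise. In that of Id1 it was the third when thinned and the second with short fragments, with 2 read pairs and in bins of 1000 bp. Of the percentiles of members under alternatives, 46 stayed within their counting interval and 38 moved, furthest for Tcf4 with the most upstream start (34.7) and for Id2 with its upstream start (43.3 when ranked against most upstream starts, 42.5 against most upstream principal starts). The cause was not tested. No paired analysis was possible because there was 1 library of each kind. The median bin had a fragment from 1 cell, so weak sites are beyond this depth.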
